A study of Mus musculus with 8 samples.

Results

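The genes examined were 31 genes of GABA and glycine transmission in the ventral tegmental area (VTA) of young mice, chosen by name. They comprise 4 genes of GABA synthesis, vesicle loading and breakdown, 12 GABA-A receptor subunits, both GABA-B receptor subunits, 5 genes of glycine receptors and glycine uptake, 2 postsynaptic scaffold genes, 2 chloride cotransporters and 4 transcription factors of the midbrain GABA lineage. All 31 are among the 54735 genes of the count table, and the list does not hold every gene of this kind. Of the 31, 29 passed the filter on low counts and were tested.

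RNA sequencing was done on bilateral VTA punches of DBA2/J mice that the labels give as males at postnatal day (PD) 21, with 4 control (CTR) and 4 socially stressed (SS) libraries. SS pups were exposed to an unfamiliar adult CD1 male for 30 min per day between PD 14 and PD 21, and CTR litters stayed undisturbed. According to the study's methods the brains were taken on the day after the last exposure. No genetic manipulation was used. More than 1 pup of a litter could be used in the study, and which mice shared a litter is not given in the sources used here, so the p-values measure the spread between these libraries. Libraries are named by group and number, with the numbers 1, 2, 3 and 5 for CTR and 2, 3, 4 and 5 for SS, and all values in series follow this order.

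GABA is made from glutamate by glutamate decarboxylase, loaded into vesicles together with glycine by a shared transporter and broken down by a transaminase. GABA-A and glycine receptors are chloride channels built of 5 subunits, and the subunit mix sets their location and pharmacology, whereas GABA-B receptors signal through G proteins. In the VTA, local GABA neurons lie among the dopamine neurons and inhibit them, and further GABA input arrives from the forebrain and the midbrain tail. The direction of chloride current depends on the cotransporters that import or extrude chloride, which change in level over early postnatal life. A punch is a mixture of cells, and fewer cells of a type and less RNA per cell cannot be told apart in it.

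Library totals ranged from 20036086 to 47319997 counts on genes. Levels are given as CPM, a gene's counts per 1e+06 counts of its library after TMM normalization, with the mean ± SD over 4 libraries per group. Weakly expressed genes were often missed in CTR-1 and CTR-2, where 434 and 355 of the 1991 genes averaging 1 to 3 CPM went uncounted, against 1 to 94 elsewhere. CTR-5 and SS-5 went against their label as males, with 14997 and 6551 counts of Xist, a transcript of the inactive X chromosome, and with 3 and 0 counts summed over Y-linked genes. The other 6 libraries had 0 to 3 counts of Xist and 2293 to 7892 Y-linked counts. Of 12 dopamine neuron genes, the defining markers of the region, 8 were lower in SS at an adjusted p under 0.05 (edgeR). Th, the rate-limiting enzyme of dopamine synthesis, was at 281 ± 147 CPM for CTR and 17.8 ± 5.20 CPM for SS, and Slc6a3, the dopamine transporter, at 448 ± 186 and 6.19 ± 4.13 CPM (SD, n = 4 libraries). For several inhibitory genes the estimate depended on 1 of these libraries, and values without it are given below.

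None of the 29 tested genes of GABA and glycine transmission passed the test between SS and CTR (edgeR quasi-likelihood test, adjusted p under 0.05 after Benjamini-Hochberg adjustment over 16538 genes). The smallest adjusted p among them was 0.708. The same test called 14 genes, or 0.0847% of all genes tested. DESeq2 also called 0 of the 29, against 81 of 19349 genes overall (0.419%). At an unadjusted p under 0.05 there were 4 of 29 (13.8%), compared with 6.55% of all genes tested. Gabra4 was the 1 lower in SS, where the background for this direction was 3.7%, and Gabrg3, Gabrq and Glra2 were the 3 higher, where it was 2.85%. Fitted log2 fold changes (SS relative to CTR) were above 0 for 16 genes and below 0 for 13, with a median of 0.09 against 0.0037 over all genes tested. The CTR and SS values did not overlap for 2 of 29 genes (6.9%), Gabrg3 and Glra2, compared with 4.67% of all genes tested.

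The 95% intervals of the fold change show what sizes of difference the 8 libraries leave possible. The interval lay within 1.5-fold in either direction for 13 of 29 genes (44.8%, compared with 40.9% of all genes tested) and within 2-fold for 23 of 29 (79.3%, compared with 64.7%). The 6 genes with wider intervals were Gabra4, Gabrd, Glra1, Slc6a5, Gata3 and Tal1. Set beside the dopamine neuron genes Th, Slc6a3, Slc18a2 and Ddc, whose highest upper limit was a log2 fold change of -1.81, the interval of 26 of the 29 genes lay wholly above this limit. The other 3 intervals, those of Gabrd, Gata3 and Tal1, reached it. Th, Slc6a3, Slc18a2 and Ddc are part of a longer dopamine neuron list, and each passed the adjusted test. Within that list the upper limits of Pitx3, En1, Chrna6 and Slc10a4 were also below -1.81. Those of Aldh1a1, Foxa1, Lmx1b and Nr4a2 were above it, at -0.87, 0.13, 0.23 and 0.58. The comparison therefore holds for strongly lowered dopamine neuron genes and not for the whole list.

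**Figure D1:**
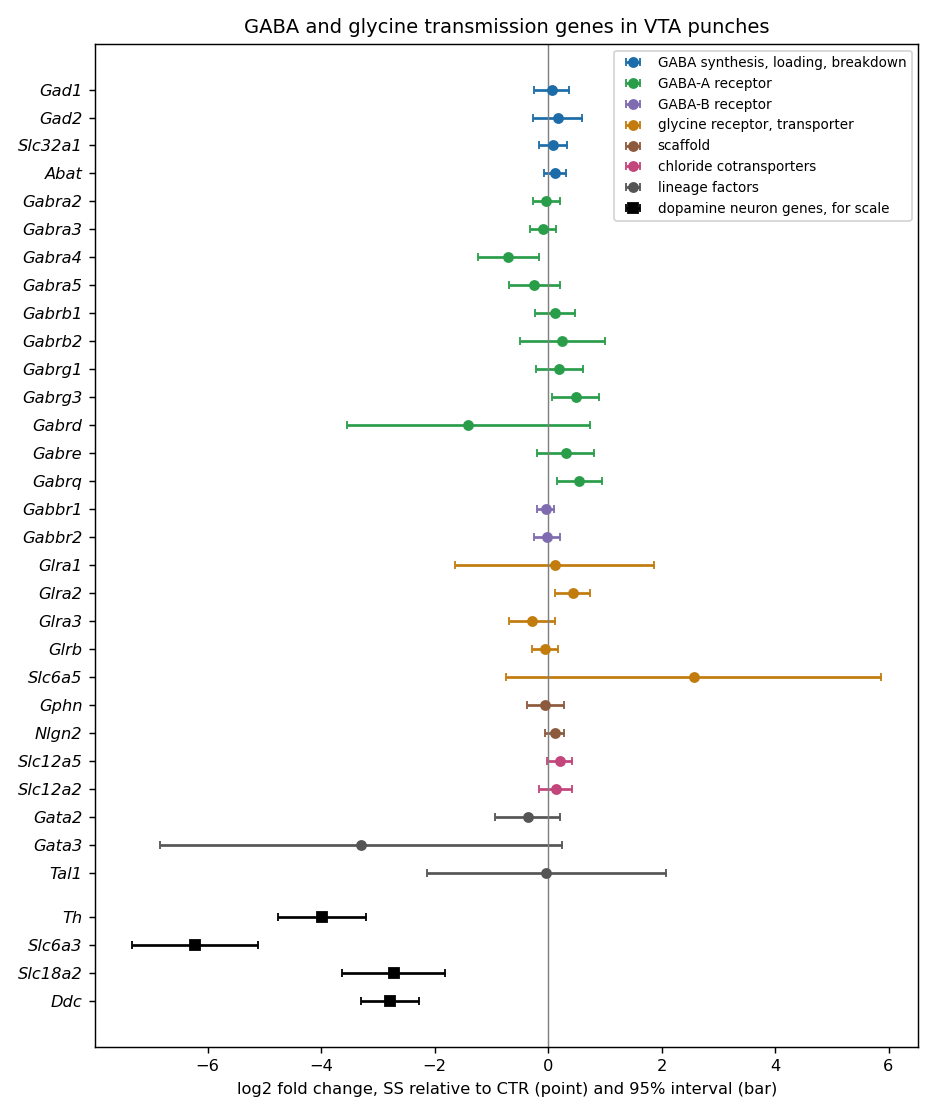
Log2 fold change of SS relative to CTR (horizontal axis) for the 29 tested genes of GABA and glycine transmission, coloured by role, and for 4 dopamine neuron genes as black squares. Points are the edgeR estimates and bars the 95% intervals. The interval holds 0 for 25 of the 29 genes. The 4 dopamine neuron genes shown, Th, Slc6a3, Slc18a2 and Ddc, are part of a longer list and lie at -2.72 or lower.

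The defining genes of GABA neurons were present in every library of both groups, and none of them passed the test. Gad1, the larger of the glutamate decarboxylases, was at 122, 129.7, 114 and 141 CPM in the CTR libraries and at 147, 151, 133 and 97.1 CPM in the SS libraries. The groups overlapped, and SS-5 held the lowest value of all. The log2 fold change of Gad1 was 0.06 (SE 0.14, 95% interval -0.24 to 0.36, adjusted p = 0.948 by edgeR). Gad2, the decarboxylase found mainly at nerve endings, was at 153, 205, 196 and 205 CPM among CTR and at 263, 266, 191 and 129 CPM among SS. SS-2 and SS-3 were above every CTR library and SS-5 below every CTR library. For Gad2 the log2 fold change was 0.17 (SE 0.20, adjusted p = 0.894 by edgeR), and it was 0.38 with both libraries numbered 5 left out (adjusted p = 0.426). Without SS-5 alone it was 0.35. In both of these fits Gad2 had an unadjusted p under 0.05 and did not pass the adjusted test.

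Slc32a1, the vesicular transporter that loads GABA and glycine, was at 138, 125, 121 and 97.7 CPM in CTR and at 134, 132, 115 and 129.5 CPM in SS. The SS range lay inside the CTR range, and the log2 fold change was 0.09 (SE 0.12, 95% interval -0.17 to 0.34, adjusted p = 0.904 by edgeR). Abat, the transaminase that breaks GABA down, was the most abundant of the 4 genes by count, at 554 ± 63.0 CPM for CTR and 603 ± 23.7 CPM for SS (SD, n = 4 libraries). For Abat the estimated log2 fold change was 0.12 (SE 0.09, adjusted p = 0.812 by edgeR). All 4 genes of synthesis, loading and breakdown had estimates slightly above 0 and none passed the test.

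Within a library, the ratio of 2 genes does not depend on the scaling between libraries. The ratio of Gad1 to Gad2 counts ranged from 0.581 to 0.800 in CTR and from 0.559 to 0.752 in SS. The ratio of Slc32a1 to the sum of Gad1 and Gad2 ranged from 0.283 to 0.502 in CTR and from 0.318 to 0.573 in SS. The difference between groups was -0.07 on the log2 scale for the former and 0.0045 for the latter (exact two-sided permutation test over 70 assignments, p = 0.6 and p = 1, adjusted p = 1 for each over the 5 ratios computed). SS-5 had the highest ratio of Slc32a1 to the decarboxylases and CTR-5 the lowest. With both left out the difference was -0.33 (exact permutation p = 0.5 adjusted over the 5 ratios). Every remaining SS library was then below every remaining CTR library. This adjusted p could therefore not have been lower for 1 ratio alone with the libraries left. With all libraries, an adjusted p of 0.14 is the smallest that 1 ratio alone could reach.

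Levels of different genes can be compared only per length, and for this purpose counts were expressed as RPKM, reads per kilobase of merged exon and normalized in the same way. Gabbr1 was highest at 114 ± 5.75 RPKM in CTR and 111 ± 3.44 RPKM in SS (SD, n = 4 libraries). Slc12a5, Abat, Nlgn2, Gabbr2, Glrb and Slc32a1 followed with means over both groups of 82.8, 74.7, 60.0, 49.2, 44.5 and 44.4 RPKM. Gabbr1 lay above Slc12a5 by more than the SDs in both groups, whereas Slc12a5 and Abat overlapped in CTR (77.0 ± 10.2 and 71.5 ± 8.13 RPKM), and Gabbr2, Glrb and Slc32a1 lay within 1 SD of each other in CTR. Among GABA-A subunits Gabra3 was highest with a mean of 28.6 RPKM, then Gabra2 with 16.6, Gabra5 with 15.3, Gabrb2 with 11.8, Gabrq with 11.3 and Gabrb1 with 10.5 RPKM. Gabrg1, Gabra4, Gabre and Gabrg3 lay between 4.66 and 2.76 RPKM, and Gabrd was at 0.66 RPKM. Gad2, with a mean of 34.2 RPKM, was above Gad1, with 16.9 RPKM.

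**Figure D2:**
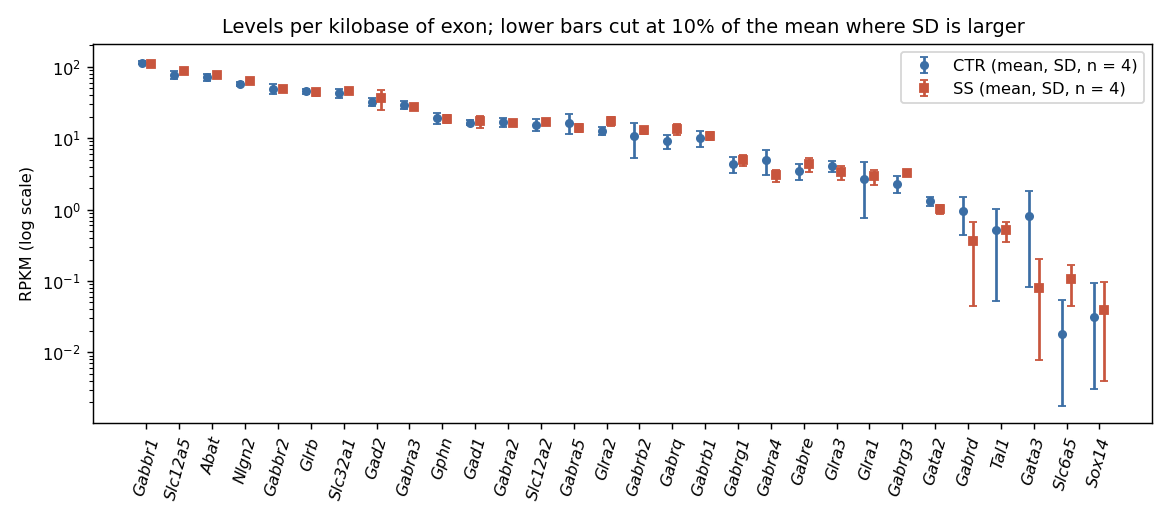
Level per kilobase of merged exon (RPKM, log scale) of the 30 genes with counts, in order of their mean, as mean and SD of the 4 CTR (blue) and 4 SS (red) libraries. Means over both groups fall from 112 RPKM for Gabbr1 to 0.035 RPKM for Sox14. The lowest group mean is that of Slc6a5 in CTR, at 0.018 RPKM. The error bars are long for Glra1, Gabrd, Tal1, Gata3, Slc6a5 and Sox14.

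Of the 31 genes, 24 had counts in every library and 7 did not. Gabra6, a GABA-A subunit of cerebellar granule cells, had no count in any library, which allows at most 0.155 CPM in the shallowest library and 0.0622 CPM in the deepest (3 counts, counting error only). Sox14, a transcription factor of midbrain and thalamic GABA neurons, had 10 counts in CTR-5, 12 in SS-3 and 2 in SS-5 and none in the other 5 libraries. These 2 genes did not pass the filter on low counts and were too low to read. The other 5 genes without counts in some library, Gabrd, Glra1, Slc6a5, Gata3 and Tal1, passed the filter and were tested. They are also 5 of the 6 genes with the widest intervals. Slc6a5 and Gata3 had no count in 3 libraries each, and the size of their change could not be read either. The libraries with the most of these gaps were CTR-2 with 5 genes, and CTR-1 and SS-4 with 4 each, and the remaining libraries lacked 1 or 2.

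Among the GABA-A subunits, 3 of the 11 tested had an unadjusted p under 0.05, compared with 6.55% of all genes tested, and none passed the adjusted test. Gabrq encodes the theta subunit, known from monoamine nuclei and the hypothalamus, and lies on the X chromosome (GRCm38, X, 72825178 to 72842602, plus strand). It was at 62.3, 36.8, 44.4 and 53.2 CPM in CTR and at 80.0, 82.2, 72.5 and 52.8 CPM in SS. SS-2, SS-3 and SS-4 were above every CTR library, whereas SS-5 lay within the CTR range. The log2 fold change of Gabrq was 0.55 (SE 0.18, 95% interval 0.15 to 0.95, edgeR unadjusted p = 0.0109 and adjusted p = 0.714), and the exact permutation p was 0.086. With both libraries numbered 5 left out it was 0.71 (adjusted p = 0.300).

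Gabrg3 encodes the gamma-3 subunit and lies on chromosome 7 (GRCm38, 56716465 to 57387188, minus strand). It was at 28.2, 17.1, 30.6 and 34.0 CPM in CTR and at 37.4, 37.0, 40.8 and 38.3 CPM in SS. Every SS library was above every CTR library, with the 4 SS values close together. For Gabrg3 the log2 fold change was 0.48 (SE 0.19, 95% interval 0.07 to 0.90, edgeR unadjusted p = 0.0258 and adjusted p = 0.755). The exact permutation p was 0.029, the smallest that 4 against 4 libraries can give. Without CTR-1 and CTR-2, the libraries with the most undetected genes, the log2 fold change was 0.25 (adjusted p = 0.810).

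Gabra4 encodes the alpha-4 subunit, known from extrasynaptic receptors of the thalamus, striatum and hippocampus, and lies on chromosome 5 (GRCm38, 71569749 to 71658308, minus strand). It was at 26.1, 26.5, 20.04 and 46.4 CPM in CTR and at 19.3, 22.4, 15.03 and 16.5 CPM in SS. CTR-5 stood above the other CTR libraries, and SS-3 was above CTR-3, so the groups overlapped. The log2 fold change of Gabra4 was -0.70 (SE 0.25, 95% interval -1.24 to -0.17, edgeR unadjusted p = 0.0145 and adjusted p = 0.741), with an exact permutation p of 0.057. Without CTR-5 it was -0.40 and no longer had an unadjusted p under 0.05. Gabra4 shares 46 exonic bases with Gabrb1 on the opposite strand, and whether the counting used strand is not given in the sources used here.

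CTR-5 was also the library with the highest level of forebrain excitatory neuron genes. Neurod6, a transcription factor of cortical and hippocampal excitatory neurons, was at 8.11, 13.9, 13.1 and 75.6 CPM in CTR and at 8.01, 8.09, 4.26 and 16.5 CPM in SS. Slc17a7, a vesicular glutamate transporter abundant in the forebrain, was at 13.9, 243, 56.9 and 403 CPM in CTR and at 37.9, 37.0, 21.5 and 64.5 CPM in SS. Slc17a6, the vesicular glutamate transporter of midbrain neurons, was at 386 ± 46.6 and 443 ± 12.7 CPM (SD, n = 4 libraries). Of the 7 glutamate neuron genes listed, all tested, 2 (28.6%) had an unadjusted p under 0.05, compared with 6.55% of all genes tested. Both were lower in SS, and 0 of the 7 passed the adjusted test. The summed level of the 7 was 368 to 877 CPM for CTR and 459 to 535 CPM for SS. Gabra5, the alpha-5 subunit typical of the hippocampus, was at 32.4, 50.8, 43.8 and 69.5 CPM in CTR and at 48.1, 39.5, 34.6 and 44.2 CPM in SS. CTR-5 was again highest, and the log2 fold change of Gabra5 was -0.24 (SE 0.21, adjusted p = 0.838 by edgeR) and -0.03 without CTR-5. Gabra5 shares 148 exonic bases with the antisense gene Gm9962, which held 636 counts over the 8 libraries. Gabrd, the delta subunit that joins alpha-4 or alpha-6 outside synapses, was at 2.02, 3.03, 1.253 and 4.76 CPM in CTR and at 1.32, 2.12, 0 and 0.69 CPM in SS. Its estimated change on the log2 scale was -1.41 (SE 0.98, adjusted p = 0.802 by edgeR), and -0.87 with both libraries numbered 5 left out. CTR-5 was the highest CTR library for 16 of the 29 tested genes, so this was not particular to these 3 subunits. The part of forebrain RNA in their values was not tested.

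**Figure D3:**
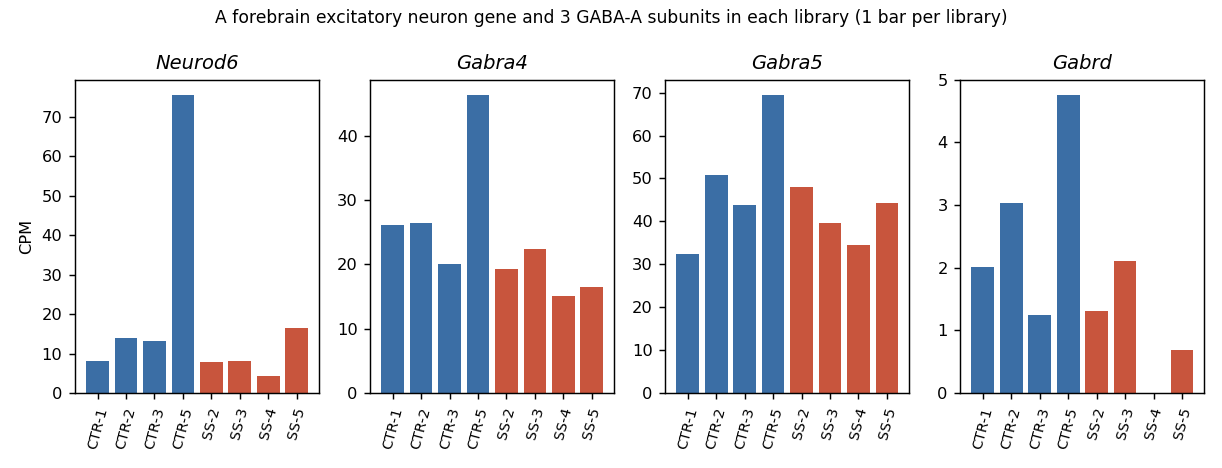
CPM (vertical axes, from 0) of Neurod6, a forebrain excitatory neuron gene, and of the GABA-A subunits Gabra4, Gabra5 and Gabrd, with 1 bar per library, CTR in blue and SS in red. CTR-5 is the highest library in all 4 panels, at 75.6 CPM for Neurod6 and 46.4 CPM for Gabra4. It was also the highest CTR library for 16 of the 29 tested genes.

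The remaining GABA-A subunits did not separate the groups. Gabrb2, a beta subunit of most synaptic receptors, was at 20.9, 85.7, 65.7 and 101 CPM in CTR and at 91.1, 85.2, 80.2 and 69.8 CPM in SS. CTR-1 lay far below the rest, and the log2 fold change of Gabrb2 went from 0.25 (SE 0.34, adjusted p = 0.905 by edgeR) to -0.05 without it. Gabrb1 was at 139 ± 35.3 CPM for CTR and 151 ± 19.3 CPM for SS. Gabra2, a synaptic alpha subunit, was at 128 ± 16.9 and 126 ± 7.57 CPM, and Gabra3, the alpha subunit typical of monoamine neurons, at 116 ± 14.2 and 109 ± 3.32 CPM (SD, n = 4 libraries). Gabrg1, at 34.2 ± 8.91 and 39.2 ± 6.66 CPM, and the epsilon subunit Gabre, at 16.6 ± 4.30 and 20.5 ± 4.70 CPM, had log2 fold changes of 0.20 (SE 0.19) and 0.31 (SE 0.23). The adjusted p of these 5 genes lay between 0.816 and 0.972 (edgeR). Gabrb1 went from 0.12 to 0.31 on the log2 scale without CTR-5, Gabre from 0.31 to 0.50 without CTR-1 and Gabrg1 from 0.20 to 0.39 without CTR-2, each then with an unadjusted p under 0.05 and none past the adjusted test.

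Several subunit genes are neighbours in the genome, and the estimates of neighbours differed in sign. In the cluster on chromosome 5 (GRCm38, 70751047 to 72149037) Gabrg1 and Gabrb1 had estimates above 0 and Gabra2 and Gabra4 below 0. On chromosome 7 (56716465 to 57510059) the estimate was 0.48 for Gabrg3 and -0.24 for Gabra5. On the X chromosome (72255999 to 72842602) it was 0.31 for Gabre, -0.09 for Gabra3 and 0.55 for Gabrq.

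The glycine receptor genes are led by Glrb, the beta subunit that binds gephyrin, at 211 ± 18.4 CPM for CTR and 203 ± 23.3 CPM for SS (SD, n = 4 libraries). On the log2 scale SS minus CTR was -0.05 (SE 0.11, adjusted p = 0.937 by edgeR). Glra2, the alpha subunit of immature and nonsynaptic glycine receptors, lies on the X chromosome (GRCm38, X, 165129017 to 165327393, minus strand). It was at 42.8, 32.8, 42.1 and 43.0 CPM in CTR and at 60.2, 51.8, 44.8 and 60.4 CPM in SS. Every SS library was above every CTR library, although SS-4 only just. For Glra2 the log2 fold change was 0.43 (SE 0.14, 95% interval 0.12 to 0.74, edgeR unadjusted p = 0.0101 and adjusted p = 0.708), and the exact permutation p was 0.029. With both libraries numbered 5 left out it was 0.41 (adjusted p = 0.425).

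The promoter windows of Gabrq, Glra2 and Gabrg3, the genes with higher levels at an unadjusted p under 0.05, are shown because the results on higher levels turn on these genes. RefSeq promoter windows (GRCm38.p6, 250 bases before the start) matched 27 of the 31 genes in 35 windows, and Abat, Gabrd, Glra1 and Slc12a2 were not matched. The windows are Gabrq at chrX:72824928-72825177 (plus strand), Glra2 at chrX:165327394-165327643 (minus strand) and Gabrg3 at chr7:57387216-57387465 (minus strand), each printed 5′ to 3′ along the gene. Capitals mark matches on either strand to 3 motifs. The GC box was searched as GGGCGG. The TATA box was searched as TATAAA. The GATA motif was searched as GATAA.
Gabrq: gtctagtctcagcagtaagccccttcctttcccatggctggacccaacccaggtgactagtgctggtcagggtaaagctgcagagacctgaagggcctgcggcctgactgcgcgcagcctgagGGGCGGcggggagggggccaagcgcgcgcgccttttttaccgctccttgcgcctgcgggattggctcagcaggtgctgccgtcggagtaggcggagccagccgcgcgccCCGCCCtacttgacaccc
Glra2: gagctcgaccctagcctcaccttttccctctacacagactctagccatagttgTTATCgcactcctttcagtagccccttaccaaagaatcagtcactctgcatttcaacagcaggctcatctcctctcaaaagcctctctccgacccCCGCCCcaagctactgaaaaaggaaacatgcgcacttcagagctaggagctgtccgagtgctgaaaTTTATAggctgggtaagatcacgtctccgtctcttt
Gabrg3: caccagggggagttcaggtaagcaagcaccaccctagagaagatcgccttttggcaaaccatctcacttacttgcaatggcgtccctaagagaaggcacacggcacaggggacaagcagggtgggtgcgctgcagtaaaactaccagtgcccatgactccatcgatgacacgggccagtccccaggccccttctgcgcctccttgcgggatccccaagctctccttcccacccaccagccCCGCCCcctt
Gabrq held 2 matches to the GC box, Glra2 1 match to each of the 3 motifs and Gabrg3 1 match to the GC box. The TATA box match of Glra2 was on the opposite strand, with 30 bases between it and the start. The GC content of the windows was 67.2% for Gabrq, 50.4% for Glra2 and 60.4% for Gabrg3. Over the 35 windows, 57.1% held the GC box, compared with 32.7% of 32851 promoter windows of this length. The TATA box was in 14.3% against 12.4% and the GATA motif in 22.9% against 22.6%. An E-box of Tal1 complexes, searched as CAGATG, was in 8.57% against 14.4%. A match is a stretch of letters and not a site of binding.

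Glra1, the alpha subunit of adult synaptic receptors, was at 0, 6.67, 8.38 and 10.98 CPM in CTR and at 6.91, 8.46, 8.21 and 4.70 CPM in SS. CTR-1 had no count of it where each of the other libraries had at least 122, and the interval of its log2 fold change ran from -1.64 to 1.87. Per length, Glra1 (mean 2.81 RPKM) was below Glra2 (mean 14.99 RPKM). The ratio of Glra1 to Glra2 counts was 0.203, 0.200 and 0.255 in the 3 CTR libraries other than CTR-1 and was 0.115, 0.164, 0.184 and 0.0781 in SS. Without CTR-1 the difference of this ratio was -0.77 on the log2 scale (exact permutation p = 0.238 adjusted over the 5 ratios), whereas with CTR-1 it was 1.36 and depended on the 0.5 counts added to each gene. Glra3 was at 37.4 ± 6.18 CPM for CTR and 30.7 ± 6.78 CPM for SS (a difference of -0.28 on the log2 scale, SE 0.19, adjusted p = 0.796 by edgeR). Slc6a5, the glycine transporter of glycinergic nerve endings, had 0, 0, 12 and 0 counts in CTR and 34, 65, 17 and 7 counts in SS. All 4 SS libraries and 1 CTR library held counts, the ranges overlapped, and the adjusted p was 0.775 (edgeR).

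Of the 29 genes, Gabbr1 had the narrowest interval. This GABA-B subunit, which binds GABA, was at 904, 824, 888 and 928 CPM among CTR and at 877, 858, 884 and 824 CPM among SS. The SS values lay within the CTR range, and the log2 fold change of Gabbr1 was -0.04 (SE 0.07, 95% interval -0.19 to 0.11, adjusted p = 0.925 by edgeR). Gabbr2, the subunit that couples to the G protein, was at 331 ± 50.1 CPM for CTR and 327 ± 2.92 CPM for SS, with a 95% interval of -0.25 to 0.22. The ratio of Gabbr1 to Gabbr2 was 3.52 in CTR-1 and 2.25 to 2.70 in the other 7 libraries, and its difference between groups was -0.04 on the log2 scale (exact two-sided permutation p = 0.943, adjusted p = 1).

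**Figure D4:**
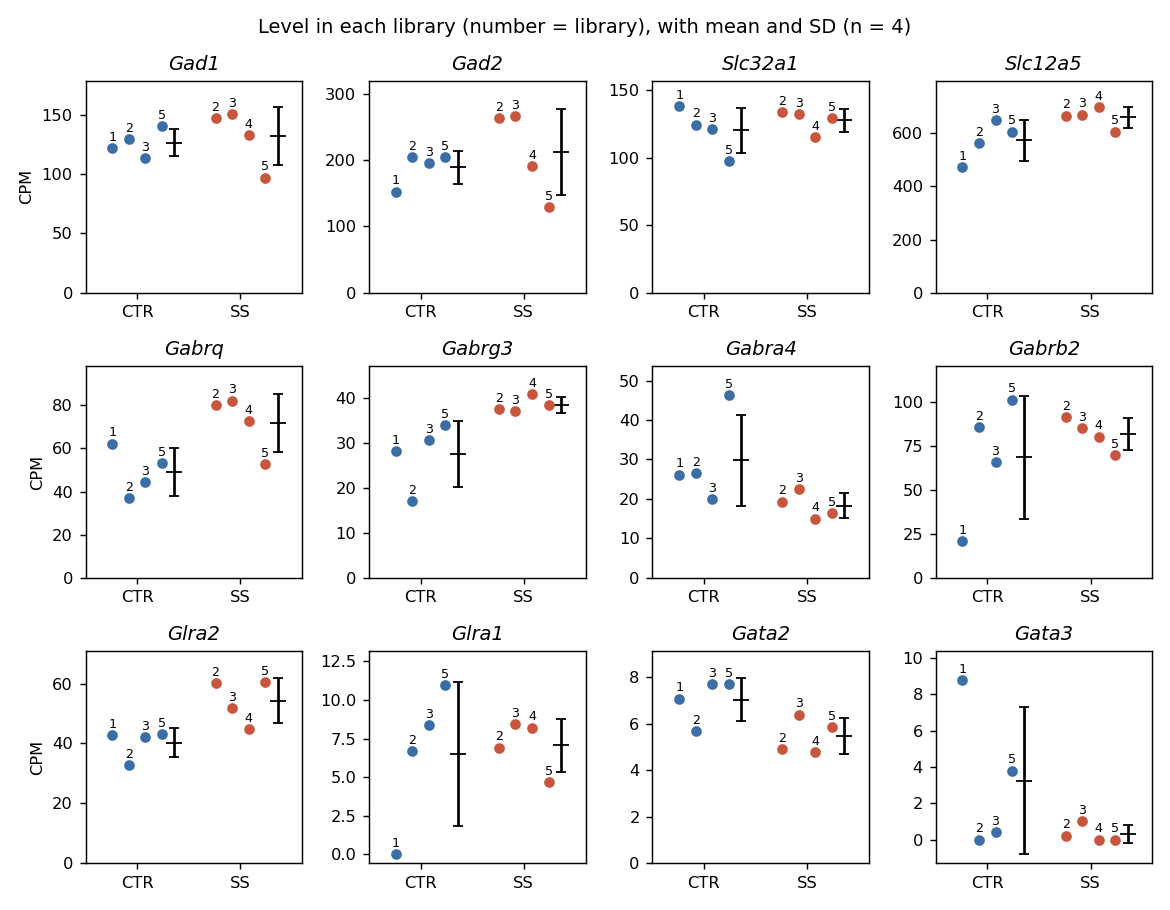
CPM of 12 genes in each library, with the library number above each point and the mean and SD of 4 libraries beside each group, CTR in blue and SS in red. For Gabrg3 and Glra2 all SS points lie above all CTR points, and CTR-1 is at 20.9 CPM for Gabrb2 and at 0 for Glra1.

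Neither chloride cotransporter passed the test. Slc12a5, the neuronal extruder KCC2, was at 472, 563, 650.5 and 607 CPM in CTR and at 667, 670.0, 700 and 606 CPM in SS. SS-2, SS-3 and SS-4 were above every CTR library and CTR-1 was the lowest. For Slc12a5 the log2 fold change was 0.20 (SE 0.10, 95% interval -0.01 to 0.42, edgeR unadjusted p = 0.0631 and adjusted p = 0.755), and 0.07 without CTR-1 and CTR-2. It was 0.27 without CTR-3. Its unadjusted p was under 0.05 without CTR-3, without CTR-5, without SS-5 and without both libraries numbered 5, and the adjusted test was not passed. Slc12a2, the importer NKCC1, was at 124, 165, 199 and 187 CPM among CTR and at 185, 195, 177 and 184 CPM among SS, with CTR-1 again lowest and an estimate of 0.13 on the log2 scale (SE 0.13, adjusted p = 0.873 by edgeR). The ratio of Slc12a5 to Slc12a2 counts was 3.80, 3.42, 3.27 and 3.23 in CTR and 3.602, 3.44, 3.96 and 3.30 in SS. These ranges overlapped almost fully, and the difference was 0.06 on the log2 scale (exact two-sided permutation p = 0.4, adjusted p = 1).

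Of the scaffold genes, Gphn encodes gephyrin, which anchors glycine and GABA-A receptors, and was at 72.5 ± 13.1 CPM for CTR and 70.1 ± 8.36 CPM for SS. Nlgn2, the adhesion molecule of inhibitory synapses, was at 333 ± 23.6 and 360.5 ± 12.7 CPM (SD, n = 4 libraries). Their log2 fold changes were -0.05 (SE 0.15) and 0.11 (SE 0.08), with adjusted p of 0.962 and 0.807 (edgeR). Gphn shares 147 exonic bases with Gm48226, a noncoding gene on the opposite strand that held 1589 counts over the 8 libraries.

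The transcription factors of the lineage were low, with means of 1.16 RPKM or less. Gata2, which sets the GABA fate in the embryonic midbrain, was at 7.08, 5.70, 7.69 and 7.69 CPM in CTR and at 4.90, 6.39, 4.78 and 5.85 CPM in SS. Gata2 had an estimate of -0.36 (SE 0.26, adjusted p = 0.813 by edgeR). Gata3, its relative in the same lineage, had 170, 0, 10 and 149 counts in CTR and 9, 50, 0 and 0 counts in SS, so 2 CTR libraries held most of the counts. Its log2 fold change of -3.30 had a standard error of 1.62 and an adjusted p of 0.755 (edgeR). The estimate for Gata3 ranged from -5.28 (without SS-3) to -2.13 (without CTR-1) when 1 library was left out, and was -0.02 with the replicate number as a block. Tal1, a partner of the GATA factors, had 33, 0, 51 and 207 counts in CTR and 59, 147, 68 and 52 counts in SS, with an interval from -2.14 to 2.07.

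Of 32 further genes of GABA and glycine uptake, breakdown, anchoring and receptor trafficking, 31 were in the table and 29 tested, 0 passed the adjusted test with edgeR or DESeq2, and 1 had an unadjusted p under 0.05. This was Amt, an enzyme of glycine cleavage, at 17.7 ± 5.56 CPM for CTR and 25.3 ± 2.26 CPM for SS (log2 fold change 0.51, SE 0.22, adjusted p = 0.755 by edgeR). The median log2 fold change of these 29 was 0.07. Slc6a11, the astrocytic GABA transporter GAT3, was the most abundant, at 845 ± 124 and 889 ± 39.5 CPM (adjusted p = 0.910), and Insyn1, a component of inhibitory synapses, was at 101 ± 6.49 and 86.4 ± 9.83 CPM (adjusted p = 0.755). Without CTR-5, 7 of these genes had an unadjusted p under 0.05, and the share over all genes tested rose from 6.55% to 13.4%. Of 12 further lineage factors, 8 were tested and none had an unadjusted p under 0.05, with Zfpm1 at 29.2 ± 2.77 and 32.7 ± 4.02 CPM, Lhx1 at 8.17 ± 1.78 and 11.4 ± 2.23 CPM and Six3 at 5.75 ± 3.20 and 3.93 ± 1.53 CPM.

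Markers of GABA neuron classes were measured beside these genes. Of 15 markers tested, 0 passed the adjusted edgeR test, and 26.7% had an unadjusted p under 0.05, compared with 6.55% of all genes tested. These were 3 lower in SS, where the background for the direction was 3.7%, and 1 higher, where it was 2.85%. Pvalb, a calcium-binding protein of fast-spiking GABA neurons, was at 68.0, 63.5, 44.8 and 20.04 CPM in CTR and at 19.8, 17.7, 28.8 and 19.6 CPM in SS. CTR-1, CTR-2 and CTR-3 were above every SS library and CTR-5 was not. Its estimated change on the log2 scale was -1.19 (SE 0.32, adjusted p = 0.506 by edgeR and 0.045 by DESeq2). Lhx6, a factor of GABA neurons of ventral forebrain origin, was at 1.96, 1.82, 1.17 and 5.17 CPM in CTR and at 4.59, 9.81, 8.47 and 5.93 CPM in SS (log2 fold change 1.496, SE 0.48, adjusted p = 0.697 by edgeR). Calb2, the most abundant marker, was at 445 ± 134 and 415 ± 12.05 CPM (SD, n = 4 libraries). The summed level of the 15 markers was 739 to 1063 CPM for CTR and 799 to 850 CPM for SS.

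Markers of other cells of the punch moved in part with the groups. The dopamine neuron list, of which 8 genes were lower in SS, also held genes that did not pass the test, such as Nr4a2 at 69.8 ± 19.5 and 77.9 ± 13.5 CPM and Lmx1b at 33.4 ± 2.34 and 30.6 ± 6.68 CPM for CTR and SS, both named after their values were seen. Its summed level was 1017 to 2151 CPM for CTR and 267 to 401 CPM for SS. Pmch, a peptide of lateral hypothalamic neurons, was at 0.21, 16.7, 1.90 and 6.65 CPM in CTR and at 34.3, 32.1, 32.7 and 50.3 CPM in SS, without overlap (log2 fold change 2.54, SE 0.74, adjusted p = 0.609 by edgeR). Of the 8 hypothalamic and mammillary genes tested it was the 1 with an unadjusted p under 0.05 (12.5%, compared with 6.55% of all genes tested). Lhx9 was at 2.39 ± 2.92 and 0.52 ± 0.36 CPM. All 8 pan-neuronal genes had estimates below 0, and 4 (50%) had an unadjusted p under 0.05, compared with 6.55% of all genes tested and 3.7% for this direction. Of the 8, 0 passed the adjusted edgeR test and 1 passed that of DESeq2. Snap25, a protein of transmitter release, was at 2007 ± 75.4 CPM for CTR and 1559 ± 150 CPM for SS (adjusted p = 0.241 by edgeR). Nefm, a neurofilament, was at 421 ± 75.3 and 311 ± 40.7 CPM (adjusted p = 0.690 by edgeR). The summed pan-neuronal level was 5059 to 5372 CPM for CTR and 4109 to 4490 CPM for SS. By contrast the 31 genes of GABA and glycine transmission summed to 3890 to 4593 CPM for CTR and 4210 to 4730 CPM for SS, ranges that overlapped. The part of these cell types in the values of Gabrq, Glra2 and Gabrg3 was not tested.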

How the data were processed

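The count table of 8 VTA libraries (4 per group) was analysed, and groups follow the labels. The authors used Cutadapt for trimming, STAR for alignment (mm10) and HTSeq for counting single-end reads, and deposited the counts per gene without normalization. In R 4.3.3, genes were kept with filterByExpr of edgeR 4.0.16 (minimum count 10, minimum total count 15), normalized with TMM, and compared with glmQLFit and glmQLFTest, with the group as the only term. P-values were Benjamini-Hochberg adjusted over 16538 genes. The biological coefficient of variation was 0.384. For single values, all 70 assignments of log2 CPM (prior count 2) to the groups gave an exact permutation p, two-sided. Ratios used 0.5 added counts. RPKM used merged exons of GENCODE M21 (GRCm38). DESeq2 1.42.0, the study's tool, was an alternative. A count of 0 was read against a floor of 3 counts.

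All 31 genes are named. Of each other list, the rule names the most abundant gene, the 2 with the smallest p and those with an adjusted p under 0.05. Genes that it selects from the lists given below as counts, and part of the dopamine list, are left out here. One further result that the rule selects is not reported here. The genes and lists were chosen with earlier results of these data known. Marker lists of astrocytes, oligodendrocytes, microglia, endothelial cells, cerebellar granule cells and hindbrain inhibitory neurons were also counted and had 0 genes past the adjusted edgeR test, and 0, 1, 1, 0, 0 and 0 genes at an unadjusted p under 0.05. The 1 gene was 11.1% of the oligodendrocyte list and 12.5% of the microglia list, compared with 6.55% of all genes tested. Intervals and floors cover counting error or the spread between libraries only.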

Additional observations from a re-analysis of the deposited data

Results flagged for a closer look

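In 68 groups of 4 values, a library was searched whose gap to its nearest neighbour took up more of the group's range than Dixon's 95% limit allows. There were 4 such groups, where chance alone gives about 3.4.

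Glra2 in CTR-2 was lowest among the CTR libraries, at 32.8 CPM with a gap of 0.905 of the range, and its log2 fold change was 0.35 without CTR-2. Gphn in CTR-1 was lowest among the CTR libraries, at 52.9 CPM with a gap of 0.946, and its log2 fold change was -0.17 without CTR-1. Slc6a5 in CTR-3 was the 1 CTR library with counts, at 0.52 CPM with a gap of 1. Without CTR-3, all CTR libraries were at 0 and the fitted value was no measure of size. The ratio of Glra1 to Glra2 was lowest in CTR-1, where Glra1 had no count, with a gap of 0.959.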

How the results depend on the processing

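No gene of the set passed the adjusted test under any alternative. At an unadjusted p under 0.05 there were 4 genes with all libraries (6.55% over all genes tested), 7 with edgeR's bias-adjusted estimate (8.09%), and 3 without SS-4 (3.53%) to 7 without CTR-3 (6.95%) when 1 library was left out. Gabrq and Glra2 were among them every time. Gabrg3 was not without SS-4 or without CTR-1 and CTR-2, and Gabra4 was not without CTR-5, without both libraries numbered 5 (-0.36) or in the replicate block. The median log2 fold change was -0.031 (without CTR-1) to 0.099 (without CTR-5) when 1 library was left out, and -0.062 without CTR-1 and CTR-2. For the 32 further pathway genes the count of 1 became 2 with DESeq2, 5 without both libraries numbered 5, and 0 to 7 when 1 library was left out. Over all genes tested the share was 5.95% with DESeq2, 10.6% without both libraries numbered 5 and 3.53% (without SS-4) to 13.4% (without CTR-5) when 1 library was left out.

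Some values reversed. With the bias-adjusted estimate, Glra1 was at -0.0053. Without both libraries numbered 5, the log2 fold changes were -0.0098 for Slc32a1, 0.092 for Gabra2, 0.0021 for Gabbr1, 0.021 for Gabbr2, 0.046 for Glrb, 0.013 for Gphn and 0.85 for Tal1, and the ratio of Slc32a1 to Gad1 plus Gad2 differed by -0.33. Without CTR-1 and CTR-2, they were -0.11 for Gabrb1, -0.034 for Gabrb2, -0.45 for Glra1 and -0.062 for Slc12a2, and the ratios differed by 0.012 for Gad1 to Gad2, -0.82 for Glra1 to Glra2 and 0.024 for Gabbr1 to Gabbr2. Same-numbered libraries of both groups had correlations of -0.00625, -0.00767 and 0.0603 in their deviations from the group means. Pairs with unlike numbers had -0.0935 to 0.0448. Such values cannot tell whether same-numbered libraries share a litter or a batch, and the sources used here do not say. In the replicate block, in which CTR-1 and SS-4 carry no information, 3 genes had an unadjusted p under 0.05 (4.6% over all genes tested), the reversed values were -0.024 for Gabrb2, -0.38 for Glra1 and 0.88 for Tal1, and Gata3 went to -0.022.

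When 1 library was left out, log2 fold changes ranged from -0.046 to 0.50 for Gabrb2, -0.29 to 0.49 for Glra1, -0.13 to 0.00026 for Gabra3, -0.12 to 0.033 for Gabbr2, -0.0022 to 0.16 for Slc32a1, -0.082 to 0.064 for Gabra2, -0.45 to 0.80 for Tal1, -0.0078 to 0.18 for Gad1, -0.17 to 0.027 for Gphn and -0.11 to 0.0090 for Glrb. Ratio differences ranged from -0.15 to 0.010 for Gad1 to Gad2, -0.77 to 2.14 for Glra1 to Glra2, -0.12 to 0.092 for Gabbr1 to Gabbr2 and -0.19 to 0.14 for Slc32a1 to Gad1 plus Gad2. A ratio of Glra1 to Glra2 without added counts could not be computed, since CTR-1 had none. Of the 435 alternative values of single genes, 406 kept their direction. The cause of these changes was not tested. Gabra6, Sox14, Slc6a5, Gata3, Tal1, Gabrd and Glra1 had libraries without counts. CTR-1, the shallowest library, lacked 4 of them, CTR-2 lacked 5 and SS-3, the deepest, lacked 1. CTR-3 and SS-5 lacked 2 each, at 23512478 and 25248618 counts in total, compared with 25399538 in CTR-2. For Gata3, CTR-1 held 170 counts and CTR-2 held 0. The part of depth in these gaps was not tested. No difference in these genes was detectable with these libraries.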
